A study of Mus musculus with 56 samples.

Results

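The genes of the interstitial collagens were followed in the liver of 56 mice: Col1a1 and Col1a2 (type I collagen), Col3a1 (type III), Col5a1 and Col5a2 (type V), Col6a1, Col6a2 and Col6a3 (type VI) and Col14a1 (collagen XIV). These are 9 of the 45513 genes listed. They were selected on their measured counts in these same 56 mice, and which of the groups decided the choice is not recorded. Their values are therefore described with fold changes, standard errors and 95% intervals in every comparison, and no p-value is given for them. Counts of these genes past the cut-off are set beside the share of all genes past it, and nothing is read from them. Full separation of a group from the control mice was not counted over all genes, so nothing is read from it either.

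All mice were female APOE*3Leiden.CETP transgenic mice, which carry human APOE*3Leiden and human CETP, were 9 to 14 weeks old when they entered the study, and ate a Western-type diet with 15% cacao butter and 0.15% cholesterol. Control mice received vehicle only, 5% carboxymethyl cellulose by gavage. The treated groups received imatinib (150 mg/kg, 2 gavages per day), nilotinib at a low (10 mg/kg) or a high (30 mg/kg) dose, ponatinib at a low (3 mg/kg) or a high (10 mg/kg) dose, each with 1 gavage of drug per day, or vehicle with 0.12 to 0.20% L-NAME in the drinking water, and each of the 7 groups holds 8 mice. Per the methods of the study, 3 weeks of run-in on this diet came before 16 weeks of treatment. These methods do not describe the L-NAME group, so they give no length of treatment for it. Each mouse gave 1 mRNA library of whole liver. Imatinib, nilotinib and ponatinib are inhibitors of the BCR-ABL1 tyrosine kinase used in chronic myeloid leukemia, and L-NAME inhibits nitric oxide synthase. No wild-type mice, male mice or mice on a chow diet were analysed here, and the library numbers of the labels, used below to name single mice, do not pair mice between groups.

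Collagens are secreted proteins in which 3 chains wind into a triple helix, and glycine recurs at a fixed spacing along that helix, as the first residue of each Gly-X-Y triplet. Types I, III and V assemble together into the banded fibrils of connective tissue, type VI forms beaded microfilaments around cells, and collagen XIV sits on the surface of fibrils. In the liver these genes are expressed by stellate cells and portal fibroblasts rather than by hepatocytes, and deposition of types I and III is the hallmark of fibrosis. In RNA of whole liver, fewer such cells and less RNA per cell cannot be told apart.

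The repeat that defines these genes can be read in their coding sequence, and the first 10 triplets of the longest unbroken Gly-X-Y run are shown for 6 of them, because the length of this run separates the fibrillar genes from the others. Sequences are from the GENCODE vM21 transcripts (GRCm38), spliced, 5′ to 3′ on the coding strand, with the glycine codons in capitals.
Col1a1 (codons 168 to 197, exons 6 to 8, chr11:94939451-94939939, plus strand): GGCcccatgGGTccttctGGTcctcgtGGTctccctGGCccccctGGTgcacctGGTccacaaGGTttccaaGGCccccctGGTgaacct
Col1a2 (codons 97 to 126, exons 6 to 8, chr6:4512406-4515516, plus strand): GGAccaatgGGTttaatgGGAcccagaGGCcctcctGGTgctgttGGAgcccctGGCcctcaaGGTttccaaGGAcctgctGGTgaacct
Col3a1 (codons 164 to 193, exons 5 to 6, chr1:45323762-45325413, plus strand): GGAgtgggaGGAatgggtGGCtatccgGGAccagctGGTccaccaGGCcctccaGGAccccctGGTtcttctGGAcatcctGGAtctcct
Col5a2 (codons 211 to 240, exons 8 to 10, chr1:45422404-45426996, minus strand): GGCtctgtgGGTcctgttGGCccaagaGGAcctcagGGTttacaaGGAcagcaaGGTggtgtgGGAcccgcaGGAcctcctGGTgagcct
Col6a1 (codons 256 to 285, exons 8 to 9, chr10:76719623-76720996, minus strand): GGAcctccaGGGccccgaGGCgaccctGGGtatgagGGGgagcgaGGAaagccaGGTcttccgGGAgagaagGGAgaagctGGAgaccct
Col14a1 (codons 1513 to 1542, exons 38 to 40, chr15:55471708-55473306, plus strand): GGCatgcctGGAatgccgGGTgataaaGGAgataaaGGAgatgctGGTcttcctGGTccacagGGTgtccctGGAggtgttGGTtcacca
The longest run was 338 triplets in Col1a1 and in Col5a1, 339 in Col1a2 and in Col5a2, and 344 in Col3a1. It was 87 triplets in Col6a1 and in Col6a2, 45 in Col6a3 and 32 in Col14a1. Thus the 5 fibrillar genes hold 1 long uninterrupted helix that takes up 55.2% to 74.1% of their codons, while it takes 25.5% of those of Col6a1 and 5.4% of those of Col14a1.

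On the genome (GRCm38, GENCODE vM21), Col3a1 (chr1:45311538-45349706) and Col5a2 (chr1:45374321-45503282) are neighbours, as are Col6a2 (chr10:76595762-76623630) and Col6a1 (chr10:76708792-76726168). Col6a3 lies at chr1:90765923-90843971, Col5a1 at chr2:27886425-28039514, Col1a2 at chr6:4504814-4541544, Col1a1 at chr11:94936224-94953042 and Col14a1 at chr15:55307750-55520803. Exons of Col5a1 overlap those of 2 transcripts on the other strand, and an exon of Col3a1 holds a microRNA gene on the same strand, and whether the counting used strand is not given in the sources used here. The libraries held 5342379 to 97473341 reads on genes (median 7570238), and that of L-NAME mouse 10 was the deepest. All 9 genes passed the filter on low counts and were fitted with 14314 genes in all, and the lowest count of any of them in any mouse was 11 reads (Col6a2, ponatinib 10 mg/kg). Levels are given in CPM, counts scaled to a common library size with TMM factors. A gene was called where the quasi-likelihood test of edgeR gave p under 0.01 before adjustment, which is the study's own cut-off, and Benjamini-Hochberg adjusted p-values over all 14314 genes are given beside.

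**Figure D1:**
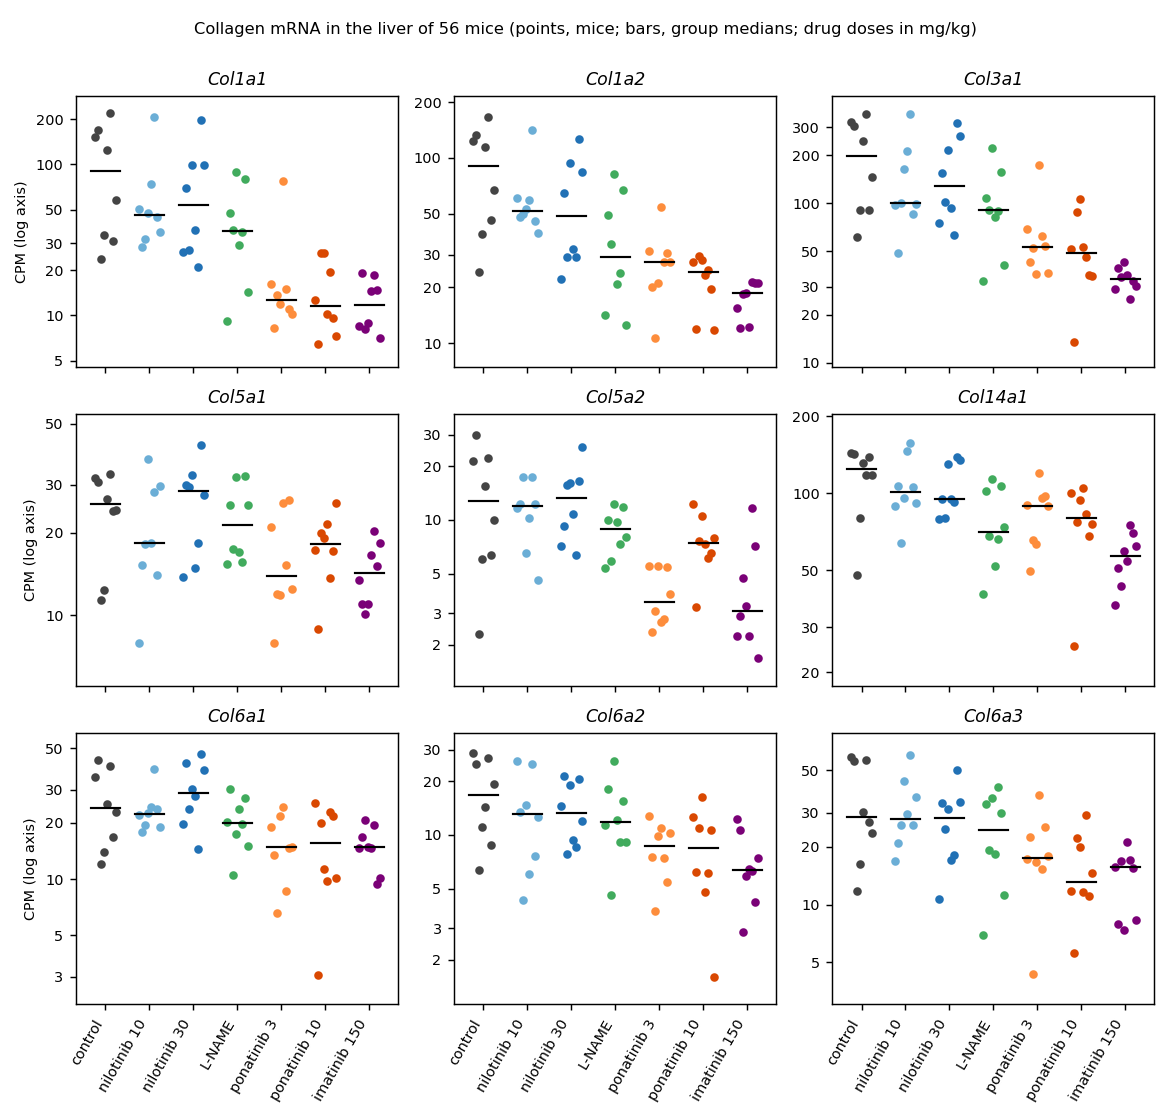
Level of each collagen gene in CPM (log axis, with its own range in each panel) in each of the 56 mice by group, with a bar at the group median. For Col1a1, Col1a2 and Col3a1 all 8 imatinib mice lie below the lowest control mouse. For the other genes every treated group overlaps the control mice. How many of all genes are separated in this way was not counted, and nothing is read from it.

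The mRNA of type I collagen, the main protein of the fibrils, was lower with imatinib and with both doses of ponatinib. Col1a1, its α1 chain, was at 23.7, 91.1 and 220 CPM in the lowest, median and highest control mouse, and at 7.05, 11.8 and 19.2 CPM with imatinib. With ponatinib these values were 8.20, 12.7 and 77.9 CPM at 3 mg/kg and 6.50, 11.5 and 26.1 CPM at 10 mg/kg. Hence every imatinib mouse was below every control mouse, and 7 of 8 and 6 of 8 ponatinib mice were, the exception at the low dose being mouse 29, at 77.9 CPM against 16.1 CPM in the next highest mouse. With nilotinib Col1a1 was at 28.2, 46.3 and 205 CPM (10 mg/kg) and at 20.8, 53.6 and 197 CPM (30 mg/kg), and with L-NAME at 9.18, 36.1 and 89.4 CPM. The nilotinib mice covered nearly the whole range of the control mice, and the 8 L-NAME mice all lay below the control median, 2 of them below the lowest control mouse.

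The log2 fold change of Col1a1 against control was -3.03 (SE 0.55) with imatinib, -2.78 (SE 0.54) with ponatinib 10 mg/kg and -2.31 (SE 0.53, 95% interval -3.38 to -1.25) with ponatinib 3 mg/kg. It was -1.24 (SE 0.51, -2.26 to -0.22) with L-NAME, -0.65 (SE 0.50, -1.65 to 0.36) with nilotinib 10 mg/kg and -0.50 (SE 0.50) with nilotinib 30 mg/kg. Ordered by median, Col1a1 went from control through nilotinib 30 and 10 mg/kg and L-NAME to ponatinib 3 mg/kg, imatinib and ponatinib 10 mg/kg. Among neighbours in this order, ponatinib 3 mg/kg was at -1.07 against L-NAME (95% interval -2.11 to -0.03). Nilotinib 30 mg/kg was at -0.50 against control (-1.50 to 0.51), and nilotinib 10 mg/kg was 0.60 above L-NAME (-0.42 to 1.61). Ponatinib 10 mg/kg was 0.25 above imatinib (-0.82 to 1.32).

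Col1a2, the α2 chain of type I collagen, was lower in the same groups. It was at 24.2, 91.2 and 167 CPM in control mice, 12.1, 18.6 and 21.4 CPM with imatinib, 10.6, 27.3 and 54.6 CPM with ponatinib 3 mg/kg and 11.7, 24.2 and 29.4 CPM with ponatinib 10 mg/kg (lowest, median and highest mouse). With L-NAME it was at 12.6, 29.1 and 82.0 CPM, and with nilotinib at 39.2, 51.6 and 142 CPM (10 mg/kg) and 22.3, 48.6 and 126 CPM (30 mg/kg). The imatinib mice were again all below the control mice, while 3 of 8 and 4 of 8 ponatinib mice and 4 of 8 L-NAME mice were. The log2 fold change of Col1a2 was -1.68 (SE 0.38) with ponatinib 3 mg/kg, -1.23 (SE 0.37) with L-NAME and -0.53 (SE 0.37) with nilotinib 10 mg/kg. It was -2.35 (SE 0.39) with imatinib, -2.02 (SE 0.39) with ponatinib 10 mg/kg and -0.57 (SE 0.37) with nilotinib 30 mg/kg, so that it was smaller than that of Col1a1 except with nilotinib 30 mg/kg.

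Col3a1, which encodes the only chain of type III collagen, was lower in the same groups. Its lowest, median and highest values were 61.1, 197 and 362 CPM in control mice and 25.0, 33.5 and 42.8 CPM with imatinib. They were 36.2, 53.1 and 173 CPM with ponatinib 3 mg/kg and 13.4, 48.9 and 106 CPM with ponatinib 10 mg/kg. The imatinib mice lay together below all control mice and 5 of 8 and 6 of 8 ponatinib mice did so, the highest low-dose mouse again being mouse 29. With nilotinib the values were 48.8, 100 and 364 CPM (10 mg/kg) and 63.6, 129 and 318 CPM (30 mg/kg), and with L-NAME 32.5, 90.1 and 221 CPM, all of which overlapped the control mice. The log2 fold change of Col3a1 was -1.63 (SE 0.42) with ponatinib 3 mg/kg, -0.99 (SE 0.41) with L-NAME and -0.47 (SE 0.41) with nilotinib 10 mg/kg. It was -2.60 (SE 0.43) with imatinib, -1.92 (SE 0.42) with ponatinib 10 mg/kg and -0.34 (SE 0.41) with nilotinib 30 mg/kg.

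Type V collagen joins type I in the core of the fibrils. Col5a2, its α2 chain, was at 2.29, 12.7 and 30.0 CPM in control mice. It was at 2.36, 3.45 and 5.55 CPM when ponatinib was given at 3 mg/kg, 3.25, 7.46 and 12.3 CPM with ponatinib 10 mg/kg and 1.69, 3.11 and 11.7 CPM with imatinib. Because 1 control mouse, mouse 22, was at 2.29 CPM, no ponatinib mouse was below all control mice, although all 8 mice at each ponatinib dose and all 8 imatinib mice were below the control median. The log2 fold change of Col5a2 with ponatinib 3 mg/kg was -1.87 (SE 0.36, 95% interval -2.59 to -1.15). With ponatinib 10 mg/kg it was -0.89 (SE 0.35), and the high dose lay 0.98 above the low dose (SE 0.36, 95% interval 0.26 to 1.69). With imatinib the log2 fold change was -1.67 (SE 0.36) and with nilotinib 30 mg/kg -0.09 (SE 0.34). Levels with nilotinib were 4.59, 12.0 and 17.4 CPM at 10 mg/kg (log2 fold change -0.30, SE 0.34) and with L-NAME 5.37, 8.85 and 12.3 CPM (-0.69, SE 0.34). Counts behind Col5a2 were small, between 20 and 42 reads per mouse with ponatinib 3 mg/kg against 17 to 411 reads in control mice.

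Col5a1, the α1 chain of type V collagen, showed the smallest fold change of the 5 fibrillar genes in 3 groups. These were the groups in which type I collagen mRNA was lowest. It was at 11.4, 25.4 and 32.9 CPM in control mice, 10.1, 14.3 and 20.3 CPM with imatinib, 7.92, 13.9 and 26.4 CPM with ponatinib 3 mg/kg and 8.91, 18.2 and 25.8 CPM with ponatinib 10 mg/kg, so that the groups overlapped. The log2 fold change was -0.55 with ponatinib 3 mg/kg (SE 0.25), -0.20 with nilotinib 10 mg/kg (SE 0.25) and -0.11 with L-NAME (SE 0.25). With imatinib it was -0.74 (SE 0.25), with ponatinib 10 mg/kg -0.44 (SE 0.25) and with nilotinib 30 mg/kg 0.10 (SE 0.25). Per kilobase of transcript, the median ratio of Col5a2 to Col5a1 was 0.677 in control mice, 0.357 with imatinib, 0.330 with ponatinib 3 mg/kg and 0.483 with ponatinib 10 mg/kg. The ratio ranged from 0.254 to 1.24 among control mice and from 0.133 to 0.590 with ponatinib 3 mg/kg, so that the groups overlapped.

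**Figure D2:**
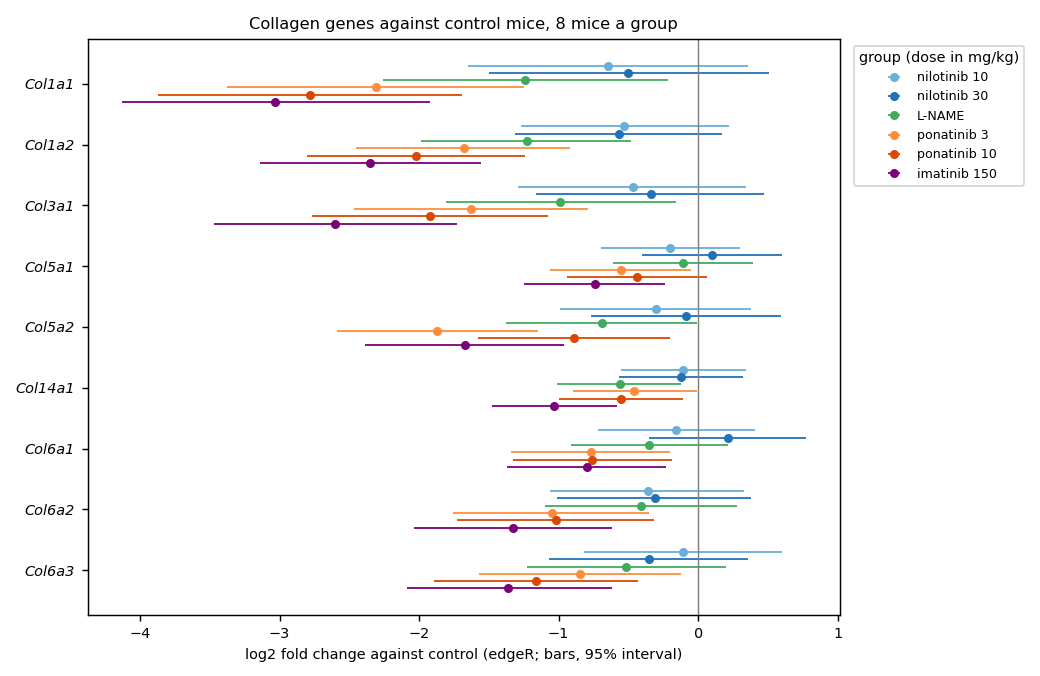
Log2 fold change against control of each collagen gene in the 6 treated groups (points, edgeR estimates from the fit of 56 mice; bars, 95% interval). Col1a1, Col1a2 and Col3a1 reach from -1.63 to -3.03 with imatinib and ponatinib, the nilotinib points lie between -0.65 and 0.21, and Col5a2 is the gene whose ponatinib 3 mg/kg point lies clearly to the left of the 10 mg/kg point.

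In these groups the mRNAs of type VI collagen, which links cells to the fibrils, were lower by a smaller factor than those of types I and III. Col6a1 was at 12.0, 23.9 and 43.4 CPM in control mice, 9.37, 14.8 and 20.6 CPM with imatinib, 6.57, 14.8 and 24.2 CPM with ponatinib 3 mg/kg and 3.06, 15.6 and 25.4 CPM with ponatinib 10 mg/kg. The groups overlapped, with 2, 2 and 4 of 8 mice below the lowest control mouse. With ponatinib 3 mg/kg the log2 fold change was -0.77 for Col6a1 (SE 0.29), -1.05 for Col6a2 (SE 0.35) and -0.85 for Col6a3 (SE 0.36).

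Col6a2, the α2 chain, was at 6.33, 16.8 and 28.8 CPM in control mice against 3.77, 8.67 and 12.7 CPM with ponatinib 3 mg/kg and 2.85, 6.38 and 12.3 CPM with imatinib. Col6a3, the long α3 chain that is found in the same heterotrimer, was at 11.7, 28.7 and 58.8 CPM in control mice as compared to 4.33, 17.5 and 37.4 CPM with ponatinib 3 mg/kg and 7.39, 15.6 and 21.2 CPM with imatinib. All 8 imatinib mice were below the control median for each of the 3 genes, and 4 of 8 were below every control mouse for Col6a2. The log2 fold changes of Col6a1, Col6a2 and Col6a3 were -0.80 (SE 0.29), -1.33 (SE 0.36) and -1.36 (SE 0.37) with imatinib and -0.76 (SE 0.29), -1.02 (SE 0.35) and -1.16 (SE 0.36) with ponatinib 10 mg/kg. With nilotinib 30 mg/kg they were 0.21 (SE 0.28), -0.31 (SE 0.35) and -0.35 (SE 0.36). With L-NAME the 3 genes differed by -0.35 to -0.52 and with nilotinib 10 mg/kg by -0.11 to -0.36. Control mice had a median ratio of Col6a3 to Col6a1, per kilobase, of 0.571, as compared to 0.388 with imatinib and 0.620 with ponatinib 3 mg/kg.

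The mRNA of collagen XIV, a fibril-associated collagen with short helical parts, was lower with imatinib. Col14a1 was at 47.9, 125 and 144 CPM in control mice and at 36.5, 57.0 and 75.0 CPM with imatinib. It was at 49.5, 89.6 and 120 CPM with ponatinib 3 mg/kg, 25.3, 79.8 and 105 CPM with ponatinib 10 mg/kg and 40.5, 70.8 and 114 CPM with L-NAME. These groups overlapped the control mice, yet all mice given imatinib, ponatinib or L-NAME were below the control median. The log2 fold change was -0.46 (SE 0.22) with ponatinib 3 mg/kg, -0.56 (SE 0.22) with L-NAME and -0.11 (SE 0.22) with nilotinib 10 mg/kg. It was -1.03 (SE 0.22) with imatinib, a larger difference than those of Col5a1 and Col6a1, -0.55 (SE 0.22) with ponatinib 10 mg/kg and -0.12 (SE 0.22) with nilotinib 30 mg/kg.

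Counted together, 6 of the 9 genes were called with ponatinib 3 mg/kg, all lower, where 1.70% of all tested genes were called lower. At an adjusted p-value below 0.05 the count was 1 of 9, beside 1 of all 14314 genes. Nothing is read from either count, because the genes were selected on these data. The median log2 fold change of the 9 genes was -1.05 against -0.01 for all genes. Leaving out 1 control mouse at a time moved the count at the unadjusted cut-off between 4 and 8 genes. Col1a1, Col1a2, Col3a1 and Col5a2 were among them each time. With nilotinib 10 mg/kg 0 of 9 genes were called by edgeR (3.60% of all genes called lower), also by DESeq2 and limma. The median was -0.30 against 0.01. With L-NAME 1 of 9 was called (7.19% of all genes called lower), and the median was -0.56 against 0.02. This count was 4 without control mouse 22, 2 without control mouse 28, 2 without control mouse 46, 2 without L-NAME mouse 10, 2 without ponatinib 10 mg/kg mouse 8 and 0 when the 2 groups were fitted alone. The count was 9 of 9 with imatinib (6.02% of all genes called lower), 6 of 9 with ponatinib 10 mg/kg (6.79%) and 0 of 9 with nilotinib 30 mg/kg (5.19%). With nilotinib 30 mg/kg it was also 0 by DESeq2 and limma, while with imatinib it was 8 by limma voom. Leaving out single mice gave 7 to 9 genes with imatinib and 4 to 8 with ponatinib 10 mg/kg. At ponatinib 10 mg/kg Col5a1, Col5a2 and Col14a1 were not past the cut-off, and without mouse 8 of that group, whose values were the lowest of the group for 7 of the 9 genes, the count was 4.

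Treated groups were also set beside each other. With ponatinib 3 mg/kg all 9 genes were lower than with nilotinib 10 mg/kg, by -0.35 to -1.67. Of these, 4 were called lower (2.40% of all genes called lower in this comparison). They were Col1a1 (-1.67, SE 0.52), Col1a2 (-1.16, SE 0.38), Col3a1 (-1.16, SE 0.41) and Col5a2 (-1.57, SE 0.36). Only Col5a2 was called without nilotinib mouse 36, whose Col1a1 level was 205 CPM against 74.5 CPM in the next mouse of its group. Against L-NAME only Col5a2 was called with ponatinib 3 mg/kg (-1.18, SE 0.36, where 3.36% of all genes were called lower), and without ponatinib mouse 29 Col1a1 was called too (-1.81). Between nilotinib 10 mg/kg and L-NAME 0 of 9 genes were called by edgeR, DESeq2 or limma (1.19% of all genes called lower), and 8 of 9 were higher with nilotinib, by up to 0.71 (Col1a2). The 95% interval of Col14a1 was 0.01 to 0.90.

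Ponatinib and nilotinib were both given at 10 mg/kg, 1 gavage per day. In the paper's pharmacokinetic data the plasma exposure at this dose was lower for ponatinib than for nilotinib. It was above that of patients for ponatinib and below it for nilotinib. These groups are therefore matched by mg/kg only, not by exposure. At this dose all 9 genes were lower with ponatinib, by -2.13 for Col1a1 (95% interval -3.20 to -1.06), -1.50 for Col1a2 (-2.26 to -0.73), -1.45 for Col3a1 (-2.29 to -0.61) and -1.05 for Col6a3 (-1.78 to -0.32). The intervals were -0.75 to 0.27 for Col5a1, -1.28 to 0.10 for Col5a2 and -1.36 to 0.05 for Col6a2. The dose of imatinib differs from those of the other drugs, and the values stand side by side only. The 10 mg/kg and 3 mg/kg ponatinib groups differed by -0.47 (95% interval -1.52 to 0.59) for Col1a1 and by 0.01 (-0.57 to 0.58) for Col6a1. For Col5a2 the difference was 0.98 (0.26 to 1.69), the largest of the 9 genes. The nilotinib doses differed by -0.24 to 0.37 over the 9 genes.

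Levels of different genes can be compared only per length of transcript. In control mice the median was 35.4 CPM per kilobase for Col3a1, 22.0 for Col14a1, 17.0 for Col1a2 and 15.4 for Col1a1, then 5.84 for Col6a1, 4.26 for Col6a2, 3.19 for Col6a3, 3.03 for Col5a1 and 1.92 for Col5a2. With ponatinib 3 mg/kg Col14a1 came first (15.8 CPM per kilobase), followed by Col3a1 (9.54), Col1a2 (5.11), Col6a1 (3.61) and Col6a2 (2.20), and Col1a1 was at 2.15. With imatinib the order was likewise led by Col14a1 (10.0), with Col3a1 at 6.03, Col6a1 at 3.60, Col1a2 at 3.47 and Col1a1 at 1.98. The gene for the α1 chain of type I collagen thus ranked above each type VI gene in control mice and below Col6a1 in these groups. Per kilobase, the ratio of Col3a1 to Col1a1 had a median of 2.48 in control mice (range 1.75 to 3.10) and 4.29 with ponatinib 3 mg/kg (2.37 to 5.57), a difference of 0.76 on the log2 scale. The median ratio was 2.47 with nilotinib 10 mg/kg and 2.66 with L-NAME, and 3.06 with imatinib and 4.13 with ponatinib 10 mg/kg. The ratio of Col1a1 to Col1a2 was 0.925 in control mice (0.610 to 1.19) and 0.477 with ponatinib 3 mg/kg (0.327 to 1.28).

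The control mice themselves differed widely, and they did so for all 9 genes together. Col1a1 had a coefficient of variation of 73.5% among them, Col1a2 of 58.2%, Col3a1 of 59.0% and Col14a1 of 29.7%. Mice 1 and 12 were among the 4 highest of the 8 control mice for all 9 genes and mice 33 and 40 for 8 genes each, while mouse 22 was the lowest for all 9 and mouse 28 was never among the 4 highest. Over the 36 pairs of the 9 genes, Pearson's r of log2 CPM across the 8 control mice ran from 0.66 to 0.99 with a median of 0.93. The median was 0.77 with nilotinib 30 mg/kg, 0.68 with L-NAME, 0.62 with ponatinib 10 mg/kg, 0.47 with nilotinib 10 mg/kg, 0.41 with ponatinib 3 mg/kg and -0.02 with imatinib (range -0.74 to 0.59). In the imatinib group counts were lower, and the coefficient of variation was 39.5% for Col1a1 and 17.0% for Col3a1 but 75.8% for Col5a2. These correlations are a description over 8 mice each, whose genes share a library and its scaling, and the difference between groups was not tested.

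**Figure D3:**
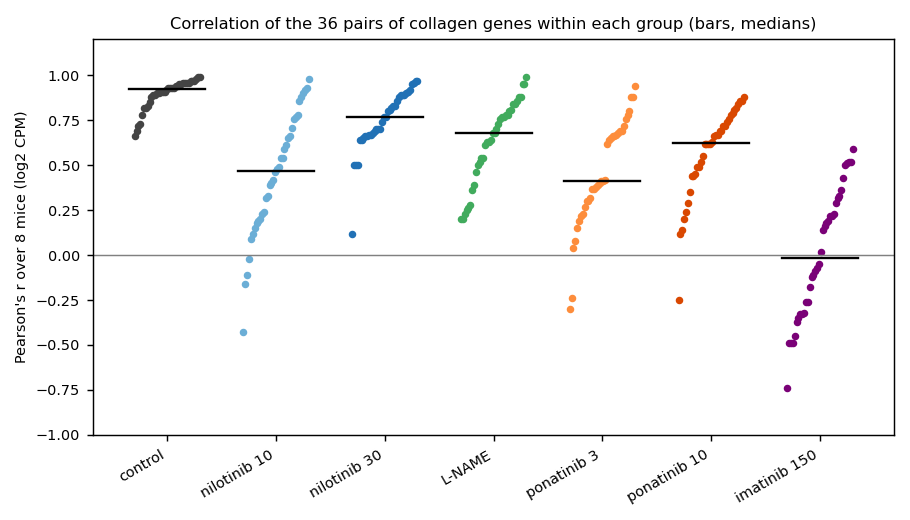
Pearson's r of log2 CPM over the 8 mice of a group, for each of the 36 pairs of the 9 collagen genes (points, pairs in rising order; bars, medians). In control mice all pairs lie at 0.66 or above, and with imatinib they scatter around a median of -0.02.

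Across all 56 mice, after subtraction of each group's mean, Col1a1 went with Col3a1 (Pearson's r = 0.91, Spearman's rho = 0.90), Col1a2 (0.86 and 0.84) and Col6a3 (0.71 and 0.71), and less with Col5a1 (0.55 and 0.52) and Col6a2 (0.53 and 0.55). Without the 2 mice farthest from the median of the other gene, r was 0.91, 0.84, 0.74, 0.55 and 0.53. Col5a1 with Col5a2, which encode chains of the same protein, had r = 0.42, and Col6a1 with Col6a2 r = 0.51. The neighbouring genes Col3a1 and Col5a2 had r = 0.51. The share of uniquely aligned reads outside annotated genes, a measure of the library, had r = 0.02 with Col1a1 within groups (rho = -0.06). Between groups this share did move, from 7.97% ± 0.422 (SD, n = 8) in control mice to 8.53% ± 0.612 and 11.0% ± 1.99 for the ponatinib doses in rising order and 10.0% ± 1.82 for imatinib, but also to 9.75% ± 0.691 and 10.5% ± 1.38 with nilotinib and 11.0% ± 2.45 with L-NAME. With this share as a covariate 6 of the 9 genes were called with ponatinib 3 mg/kg, 9 with imatinib, 5 with ponatinib 10 mg/kg and 1 with L-NAME.

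**Figure D4:**
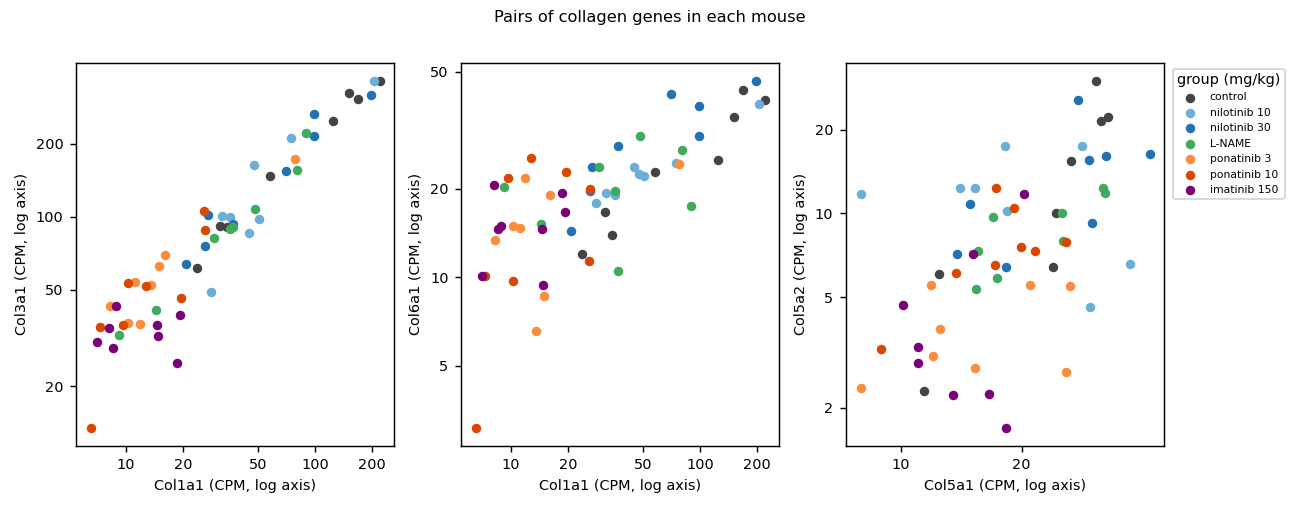
Levels of 3 pairs of collagen genes in each of the 56 mice, in CPM on log axes, coloured by group. Col1a1 and Col3a1 lie along a line from the imatinib and ponatinib mice to the highest control and nilotinib mice (r = 0.91 within groups), while Col1a1 with Col6a1 (r = 0.60) and Col5a1 with Col5a2 (r = 0.42) scatter more.

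The tested genes whose pattern within groups was most like that of the 9 genes were named by their Spearman correlation with the mean log2 CPM of the 9 genes over 56 mice. Among the first 10 of 14314, 5 were members and 5 were not: Sparc (rho = 0.85), a collagen-binding glycoprotein, the small proteoglycans Bgn (0.80) and Dcn (0.80), Gsn (0.79), an actin-severing protein, and Gpnmb (0.76), a membrane glycoprotein of macrophages. Of the members, Col1a1, Col1a2 and Col3a1 stood at ranks 1 to 3 and Col5a1, Col5a2 and Col6a2 at ranks 36, 51 and 60, with their own values part of the mean. Gpnmb had the largest fold change of the 5, from 108 CPM in control mice, with log2 fold changes of -4.74 with imatinib, -4.40 with ponatinib 10 mg/kg and -3.59 with ponatinib 3 mg/kg. Dcn was not called in any group, with log2 fold changes from -0.40 to 0.15. Of the 5 genes, 4 were called with imatinib (6.02% of all genes called lower) and 4 with ponatinib at 3 mg/kg (1.70%) and 10 mg/kg (6.79%). The count was 0 with nilotinib 10 mg/kg (3.60%), nilotinib 30 mg/kg (5.19%) and L-NAME (7.19%), shares at which 5 genes can hold none. The 5 genes were picked by their likeness to the members, so nothing is read from these counts.

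Other genes of collagen biology were taken from lists of which the members are no part, and of which counts are given in each direction. These lists, and the marker lists below, were chosen with earlier results of these data known. Their counts and adjusted p-values are therefore a description only. The counts stand beside 6.02% of all genes called lower with imatinib, 6.79% with ponatinib 10 mg/kg and 1.70% with ponatinib 3 mg/kg. These shares were 3.60% and 5.19% with the nilotinib doses and 7.19% with L-NAME. Among the basement membrane collagens 6 genes were tested, and 3 were called lower with imatinib, 2 with ponatinib 10 mg/kg and 1 with ponatinib 3 mg/kg. Their median log2 fold changes in these groups were -0.84, -0.98 and -0.66 against -0.02, -0.01 and -0.01 for all genes. Col4a1, a chain of the type IV network, had a mean of 77.1 ± 33.3 CPM in control mice and fell to 29.6 ± 7.44 CPM with imatinib (SD, n = 8, log2 fold change -1.38, SE 0.29, edgeR adjusted p = 0.00132). It fell by 0.98 with ponatinib 10 mg/kg (SE 0.29, adjusted p = 0.0165) and by 1.15 with ponatinib 3 mg/kg (SE 0.29, adjusted p = 0.133), and its partner Col4a2 fell by 0.89 with imatinib (SE 0.29, adjusted p = 0.0387) and by 1.11 with ponatinib 10 mg/kg (SE 0.29, adjusted p = 0.00732). Col15a1 and Col18a1, basement membrane collagens with endostatin-like ends, were called in other groups, a difference that was not tested. Col18a1, at 1333 ± 145 CPM in control mice far above the 9 genes, was called lower with nilotinib 10 mg/kg (-0.49, SE 0.12, adjusted p = 0.0252), nilotinib 30 mg/kg (-0.45, SE 0.12, adjusted p = 0.0147), L-NAME (-0.44, SE 0.12, adjusted p = 0.0102) and imatinib (-0.35, SE 0.12, adjusted p = 0.0542). Col15a1 was called lower with nilotinib 10 mg/kg (-1.17, SE 0.32, adjusted p = 0.0447) and L-NAME (-0.94, SE 0.32, adjusted p = 0.0425), and its fold change was -0.41 to -0.78 in the other groups, not past the cut-off.

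Of the 4 other fibrillar collagen genes tested none was called in any group, and no further type VI gene passed the filter on low counts. Of the 7 remaining collagen genes Col12a1, a relative of collagen XIV, was lower with ponatinib 3 mg/kg (-1.33, SE 0.46, adjusted p = 0.294) and Col13a1, a membrane collagen, with ponatinib 10 mg/kg (-1.82, SE 0.68, adjusted p = 0.0613), both at under 5 CPM. In the endoplasmic reticulum collagen chains are hydroxylated and folded. Of the 16 genes of this list 3 were called lower with imatinib (6.02% of all genes) and 1 higher (median -0.17). Serpinh1, the collagen chaperone HSP47, fell by 0.96 (SE 0.34, adjusted p = 0.0551), P4ha1, a prolyl hydroxylase subunit, by 0.87 (SE 0.22, adjusted p = 0.00570) and Colgalt1, a collagen galactosyltransferase, by 0.43 (SE 0.11, adjusted p = 0.00832). Ppib, a prolyl isomerase, rose by 0.35 with imatinib (SE 0.11, adjusted p = 0.0363), and also with nilotinib 10 and 30 mg/kg and L-NAME, by 0.36 to 0.46. With ponatinib 3 mg/kg 0 of these 16 genes were called by edgeR, and with 10 mg/kg only Plod1, a lysyl hydroxylase (-0.33, SE 0.11, adjusted p = 0.0380).

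Outside the cell procollagen is trimmed and crosslinked, and of 10 such genes 3 were called lower with imatinib, beside 6.02% of all genes. The count was 1 with ponatinib 3 mg/kg (1.70% of all genes) and 1 with ponatinib 10 mg/kg (6.79%), the latter near its share. None was called with nilotinib 10 mg/kg (3.60%), nilotinib 30 mg/kg (5.19%) or L-NAME (7.19%), shares at which a list of this size can hold none. Adamts2, the procollagen N-proteinase, fell by 1.16 with imatinib (SE 0.32, adjusted p = 0.0107), by 1.40 with ponatinib 10 mg/kg (SE 0.32, adjusted p = 0.00145) and by 1.07 with ponatinib 3 mg/kg (SE 0.31, adjusted p = 0.193). With imatinib the crosslinking oxidases Lox (-3.26, SE 1.10, adjusted p = 0.0450) and Loxl1 (-1.47, SE 0.49, adjusted p = 0.0392) were also lower, from 2.35 ± 1.43 and 5.69 ± 3.56 CPM in control mice (SD, n = 8).

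Of the 13 collagen-binding matrix proteins 7 were called lower with imatinib (median -0.58), beside 6.02% of all genes. The count was 5 with ponatinib 10 mg/kg (median -0.40, 6.79% of all genes) and 4 with ponatinib 3 mg/kg (median -0.58, 1.70%). It was 1 with nilotinib 10 mg/kg (3.60%), nilotinib 30 mg/kg (5.19%) and L-NAME (7.19%), near these shares. The small proteoglycan Lum fell by 0.98 with imatinib (SE 0.30, adjusted p = 0.0256), by 1.29 with ponatinib 10 mg/kg (SE 0.30, adjusted p = 0.00225) and by 1.24 with ponatinib 3 mg/kg (SE 0.30, adjusted p = 0.132). Sparc fell by 0.83 with imatinib (SE 0.26, adjusted p = 0.0319), and Bgn and Prelp by 0.76 (SE 0.19) and 0.61 (SE 0.20) with ponatinib 10 mg/kg (adjusted p = 0.00405 and 0.0350). Thbs2 was lower by 1.34 with ponatinib 3 mg/kg (SE 0.36, adjusted p = 0.133), and the microfibril gene Fbn1 by 1.94 with imatinib (SE 0.47, adjusted p = 0.00408). Fn1, fibronectin, which hepatocytes make in quantity, was the gene called with nilotinib and L-NAME (-0.74, SE 0.15, adjusted p = 0.00108 with nilotinib 30 mg/kg), and it was also called with imatinib (-0.58) and ponatinib 10 mg/kg (-0.40). Among 7 collagen receptors 3 were called lower with imatinib, beside 6.02% of all genes. Mrc2, an endocytic collagen receptor, had the largest change of these (-2.50, SE 0.56, edgeR adjusted p = 0.00206). Lair1 (-1.10, SE 0.34, adjusted p = 0.0284) and the integrin β1 subunit Itgb1 (-0.45, SE 0.11, adjusted p = 0.00339) followed. Mrc2 was also lower with ponatinib (-1.50 for the low and -1.68 for the high dose), and Itgb1 with ponatinib 10 mg/kg, nilotinib 30 mg/kg and L-NAME (-0.33 to -0.48).

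**Figure D5:**
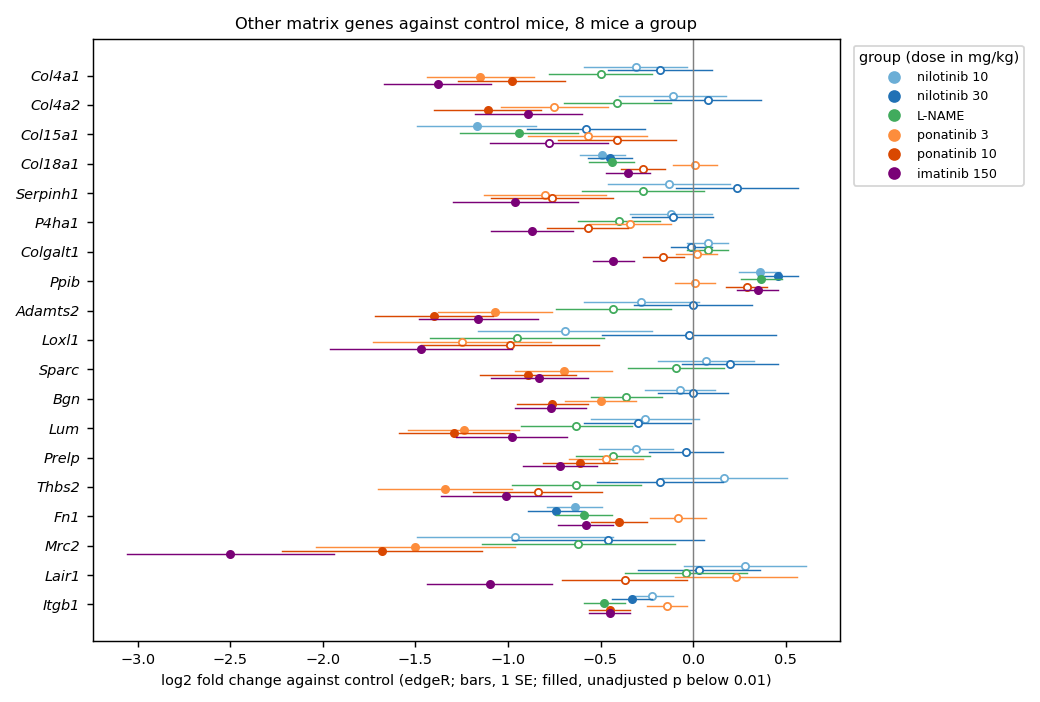
Log2 fold change against control of 19 genes of the other lists in the 6 treated groups (edgeR estimates; bars, 1 SE; filled points, called at an unadjusted p-value below 0.01). Col4a1, Adamts2, Sparc, Bgn and Lum are called with imatinib and both doses of ponatinib, and Col18a1 and Fn1 are called with imatinib, with both doses of nilotinib and with L-NAME.

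Markers of the cell types of the liver were read beside the collagen genes. Counts of called markers stand beside 1.70% to 7.19% of all genes called lower over the 6 treated groups. The 8 stellate cell markers summed to a median of 284 CPM in control mice (range 226 to 349), 244 (187 to 298) with imatinib, 253 (166 to 273) with ponatinib 3 mg/kg and 259 (94.6 to 313) with ponatinib 10 mg/kg. The sum was 319 (268 to 375) and 315 (287 to 373) CPM with nilotinib 10 and 30 mg/kg and 255 (239 to 348) CPM with L-NAME. Of these 8 genes only Pdgfrb, a growth factor receptor, was called, lower by 0.69 with imatinib (SE 0.24, adjusted p = 0.0560) and by 0.67 with ponatinib 3 mg/kg (SE 0.24, adjusted p = 0.312). All 8 were detected in each group. The lowest sum, 94.6 CPM, was that of ponatinib 10 mg/kg mouse 8. This mouse was also the lowest of its group for 7 of the 9 collagen genes. Its low marker sum was not limited to stellate cells. It was also the lowest of its group for markers of portal fibroblasts (5.29 CPM), smooth muscle (5.94), sinusoidal endothelium (137) and hepatocytes (61803). For mesothelial, cholangiocyte and Kupffer cell markers another mouse of the group was the lowest. The part of stellate cell RNA in the collagen result was not tested.

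None of the markers of portal fibroblasts (6 tested), smooth muscle (4), mesothelium (3) or cholangiocytes (4) was called in any group by edgeR. At the shares of all genes called lower, 1.70% to 7.19%, lists of this size can hold none. Over the treated groups the median log2 fold change ran from -1.61 (L-NAME) to -0.56 for mesothelium. It ran from -1.31 (ponatinib 3 mg/kg) to 0.23 for portal fibroblasts, -0.69 to 0.34 for smooth muscle and -0.57 to 0.40 for cholangiocytes. Sums of these markers over the listed genes were low. Portal fibroblast markers reached 11.6 to 26.0 CPM in control mice and 10.7 to 22.9 with imatinib. They reached 3.35 to 15.2 with ponatinib 3 mg/kg and 5.29 to 24.3 with ponatinib 10 mg/kg. Smooth muscle markers summed to 17.7 to 75.9 CPM in control mice and 14.8 to 29.0 CPM with imatinib, mesothelial markers to 0.539 to 15.5 and 1.09 to 7.42 CPM, and cholangiocyte markers to 4.44 to 25.4 and 10.8 to 22.6 CPM. Sinusoidal endothelial markers summed to a median of 272 CPM in control mice, 281 with imatinib and, for ponatinib, 217 (3 mg/kg) and 241 (10 mg/kg), and of these 7 genes Kdr was called lower with ponatinib 3 mg/kg (-0.83, SE 0.28, adjusted p = 0.294). The 6 Kupffer cell markers did not move as a block: Adgre1 was lower with imatinib (-1.35, SE 0.39, adjusted p = 0.0205) and Cd68 with imatinib (-0.80, SE 0.27) and ponatinib 10 mg/kg (-0.81, SE 0.27, adjusted p = 0.0398), while Clec4f was higher in each treated group but imatinib (0.56 to 0.69) and Marco with ponatinib 10 mg/kg (2.32, SE 0.80, adjusted p = 0.0437). The hepatocyte markers were at a median of 106420 CPM in control mice and between 84204 and 127864 CPM in the other groups. Among these 5 genes Cps1 was lower with imatinib (-0.92, SE 0.23, adjusted p = 0.00691), and with all other treatments except ponatinib 3 mg/kg (-0.81 to -0.90). Ttr was higher with imatinib (0.45, SE 0.14, adjusted p = 0.0250), and with all other treatments except nilotinib 10 mg/kg (0.38 to 0.73). Apob was lower with nilotinib 30 mg/kg, ponatinib 10 mg/kg and L-NAME (-0.35 to -0.46). The part of these shifts in the collagen levels was not tested.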

How the data were processed

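Liver mRNA of 56 mice was sequenced. The authors deposited raw counts of reads per Ensembl gene for each mouse. The submitters' processing notes name TopHat2 2.0.14, Bowtie2 2.1.0, SAMtools 0.1.18, HTSeq 0.6.1p1 and GRCm38. Reads aligned to several places were counted on no gene. Symbols came from GENCODE vM21 (44671 of 45513 identifiers), and groups from the labels.

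The members and gene lists were chosen with earlier results of these data known. All groups were fitted together with edgeR 4.0.16 (filterByExpr, TMM, quasi-likelihood test, R 4.3.3), over 14314 genes. Tests of the members, edgeR and exact permutation, were planned for the low doses and L-NAME, but their p-values are not given because it is not recorded on which groups the members were chosen. Alternatives used DESeq2 1.42.0, limma 3.58.1, other scalings, no filter, other sets of mice and a covariate. Scripts were tested on simulated data. No libraries of the same group were duplicates, and libraries of different groups were not compared for this. The p-values set differences between groups against the spread between mice. CPM per kilobase used the principal transcript.

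Named genes were the 9 members; from each list those called with imatinib or ponatinib 10 mg/kg (up to 4 per comparison) or in another group (up to 3), by absolute fold change; and the 10 tested genes most like the members' mean.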

Additional observations from a re-analysis of the deposited data

Results flagged for a closer look

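Single mice stood apart from the other 7 of their group, by Dixon's criterion at the 95% level, in 8 of the 63 combinations of gene and group. The criterion is made for normal values and was applied to unlogged CPM of genes that share libraries. No rate by chance is therefore set beside this count. Mouse 36 of the nilotinib 10 mg/kg group was the highest of its group for Col1a1 (205 CPM, next 74.5), Col1a2 (142 CPM, next 60.9) and Col6a1 (38.7 CPM, next 24.4). Mouse 29 of the ponatinib 3 mg/kg group was the highest for Col1a1 (77.9 CPM, next 16.1), Col1a2 (54.6 CPM, next 31.3) and Col3a1 (173 CPM, next 69.4). Mouse 49 of the nilotinib 30 mg/kg group was the highest for Col1a1 (197 CPM, next 99.1). Mouse 8 of the ponatinib 10 mg/kg group was the lowest for Col14a1 (25.3 CPM, next 68.3). The 9 genes share libraries, so these are 4 mice and not 8 separate results. The share of reads outside annotated genes was 9.23% in mouse 36, 8.34% in mouse 29, 10.2% in mouse 49 and 8.89% in mouse 8. The means of their groups were 9.75%, 8.53%, 10.5% and 11.0% in the same order, and mouse 8 had the lowest share of its group.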

How the results depend on the processing

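Of 171 counts of collagen genes called, over the comparisons and alternatives, 159 stayed within 1.5 times the count reported. At an adjusted p below 0.05 the count was 1 with ponatinib 3 mg/kg against control, beside 1 of all 14314 genes. Against nilotinib 10 mg/kg it was 1, beside 182 of all genes. With only the 2 groups fitted it was 0 with L-NAME against control and 2 with ponatinib 3 mg/kg against nilotinib 10 mg/kg, and with quality weights in limma it was 2 with L-NAME. Leaving out single mice gave 1 to 4 genes with L-NAME against control, 1 to 4 with ponatinib 3 mg/kg against nilotinib 10 mg/kg and 1 to 2 against L-NAME. The cause was not tested. The mice left out outside the control group were chosen after seeing the data.

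Of 1458 fold changes, 14 changed sign, none of them called. With quality weights Col6a3 with nilotinib 10 mg/kg was at 0.07, Col5a2 with nilotinib 30 mg/kg at 0.02 and Col6a2 with nilotinib 10 mg/kg against L-NAME at -0.33 (-0.28 with voom alone). Col14a1 with ponatinib 3 mg/kg against L-NAME was at -0.02 with library size only. Leaving out single mice gave -0.30 to 0.03 for Col6a3 with nilotinib 10 mg/kg, -0.01 to 0.17 for Col5a1 and -0.25 to 0.16 for Col5a2 with nilotinib 30 mg/kg, and -0.13 to 0.12 for Col6a2 with nilotinib 10 mg/kg against L-NAME. No paired analysis was possible because the library numbers are unique to each mouse. Col5a2 and Col6a2 rest on the smallest counts, which limits their precision.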
